A study of Mus musculus with 9 samples.

Results

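The account describes the control cells of a study of FOXD2, taken by their sample titles as the 5 control libraries of 9 RNA-seq libraries in all. They are mK4 cells, a mouse line of embryonic kidney mesenchyme, grown with 10% fetal bovine serum, Foxd2 wildtype, and carried through CRISPR/Cas targeting with a guide RNA that has no target in the genome. The other 4 libraries are from clone F7, which has a homozygous FOXD2 frameshift, and they enter no value given here except where a scaling over all 9 libraries is named. What all groups share is the line, the serum and the exposure to Cas9 and a guide. The series text speaks of wildtype clones, but how many clones the 5 control libraries stand for, and whether each came from its own culture, is not given. The spread between them may therefore be technical, and 1 line stands for the tissue. By general knowledge mK4 was immortalised with SV40 large T antigen driven by Hoxa11 regulatory sequence, which limits what its Hoxa11 and cell cycle values can say about kidney.

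The kidney forms when the ureteric bud invades the metanephric mesenchyme. GDNF from the mesenchyme acts on the RET receptor of the bud, and WNT signals from the bud cause part of the mesenchyme to condense, become epithelial and form nephrons. Nephron progenitors are marked by Six2 and Cited1, their early epithelial descendants by Pax8, Wnt4 and Lhx1, and the surrounding stroma by Foxd1. PAX2, EYA1, SALL1 and the HOX11 proteins act in the mesenchyme upstream of Gdnf.

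A gene was counted as expressed when it had at least 1 CPM (a count scaled to the library's total) in each of the 5 libraries. By that rule 13245 of 45808 genes in the table, 28.9%, were expressed, and 19294 genes, 42.1%, had no read in any library. Another 4086 genes had a read but stayed below 0.1 CPM in each library, and 9183 lay in between. Among protein-coding genes 10461 of 20975, 49.9%, were expressed and 5767, 27.5%, had no read, and these are the shares against which the gene lists below are read. The libraries held 10526591 to 16032175 counts each and 64138735 together, so that no read in any of them allows a level of up to 0.0467 CPM, by the limit of 3 counts over the group. That limit covers counting error only. Values after ± are SDs over the 5 libraries throughout (n = 5). Long genes collect more reads, so CPM values of different genes in a sentence give no order of their levels, and orders are given per kilobase of exon (CPM per kb). The length is that of all annotated exons joined, and where the longest transcript as length turns a printed order, its values are given. Genes whose symbol has no match in the gene models have no place in these orders.

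Replicates 3 and 5 stood apart from replicates 1 and 2. The main axis of variation among the 9921 genes of at least 10 mean CPM held 57.2% of the variance and placed replicates 1 to 5 at 12.0, 16.6, -13.0, -3.5 and -12.1. Pairwise correlations of log2 CPM ran from 0.9747, for replicates 2 and 3, to 0.9930, for replicates 1 and 2. No pair agreed within sampling noise, since the chi-square per degree of freedom of the counts was 6.75 or more in each pair. Replicate 3 also held the largest share of structural small RNA, 6.73% of its counts against 3.29% to 4.31% in the other 4, and the smallest share from protein-coding genes, 77.3% against 80.6% to 82.7%. The part these differences in composition play in the values below was not tested.

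Foxd2 itself, the gene that the study targets, was transcribed at a low level in every control library. Its values in replicates 1 to 5 were 4.33, 3.19, 4.14, 3.99 and 3.16 CPM, from 243 reads in all, a mean of 3.76 ± 0.550 CPM. Per kilobase of exon that was 1.45 CPM per kb, rank 9449 by level among the 10461 expressed protein-coding genes. Foxd2 lies at chr4:114906282-114908873 in mm10, by the GENCODE gene models that give all gene positions here.

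All 9 genes chosen to mark the line as kidney mesenchyme were expressed in each library. They were chosen with earlier results of these data known, so their expression is a description and no test of the label, and Six2 and Wt1, which also define the nephron progenitor, had no read (below). Pax2, a paired-box regulator of the mesenchyme and its epithelial descendants, lies at chr19:44756045-44837871 and was read at 172, 152, 149, 151 and 146 CPM in replicates 1 to 5, a mean of 154 ± 10.2 CPM. Replicate 1 was highest and the other 4 lay close together. Pax8, the paired-box gene of the early nephron, had 165, 165, 150, 145 and 133 CPM, a mean of 151 ± 13.6 CPM at chr2:24420560-24475599. Hoxa11, which patterns the metanephric mesenchyme, had 213, 234, 237, 246 and 232 CPM, a mean of 232 ± 12.1 CPM at chr6:52242106-52245810. It was lowest in replicate 1, where Pax2 was highest. Eya1, the phosphatase and coactivator that works with SIX-family proteins, had 89.0, 85.3, 65.2, 63.1 and 57.1 CPM at chr1:14168954-14310235. Sall1, a zinc-finger repressor of the mesenchyme, had 70.8, 66.6, 56.2, 56.1 and 55.1 CPM at chr8:89027235-89044162. Both of the latter were highest in replicates 1 and 2, with no overlap with replicates 3 to 5. Cdh6, the cadherin of the renal vesicle and proximal tubule precursor, had 569, 521, 465, 545 and 572 CPM at chr15:13028701-13173675, with its lowest value in replicate 3. Postn, a secreted matrix protein of the stroma, had 2761, 2916, 2111, 2440 and 2209 CPM at chr3:54361109-54391037. Igf2, an imprinted fetal growth factor, had 690, 745, 691, 601 and 622 CPM at chr7:142650766-142666816. Gas1, a membrane co-receptor for hedgehog that the nephron progenitors need for their FGF response, had 669, 783, 503, 475 and 429 CPM at chr13:60174405-60177365. Gas1 was the least even of the 9, its highest library at 1.83 times its lowest, against 1.16 times for Hoxa11.

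**Figure D1:**
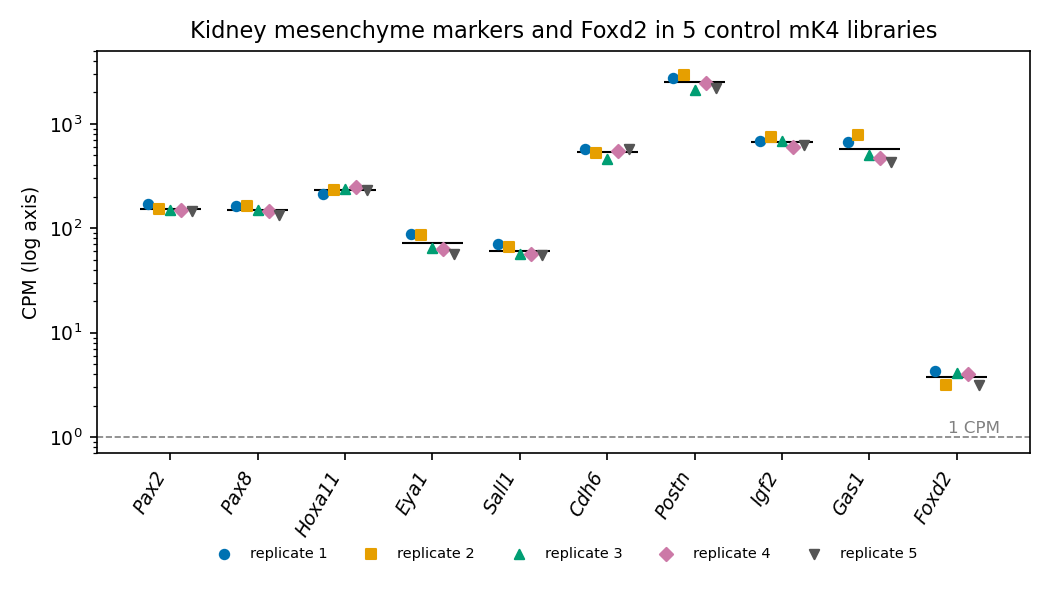
CPM (vertical axis, log scale, not corrected for gene length) of the 9 marker genes and Foxd2 in the 5 control libraries; points are libraries, horizontal lines are means and the dashed line is 1 CPM. All 9 markers sit far above the dashed line, with means between 61.0 CPM (Sall1) and 2487 CPM (Postn) that are not an order of levels per length, while Foxd2 lies just above it at 3.76.

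Per kilobase the order of the markers was Postn at 286 ± 39.8 CPM per kb, Gas1 at 193 ± 50.3, Igf2 at 117 ± 10.1, Hoxa11 at 102 ± 5.30, Cdh6 at 59.2 ± 4.86, Pax2 at 28.5 ± 1.88, Pax8 at 25 ± 2.24, Sall1 at 11.6 ± 1.37 and Eya1 at 9.21 ± 1.83. Among neighbours in that order Igf2 and Hoxa11, Pax2 and Pax8, and Sall1 and Eya1 differed by no more than the sum of their SDs. With the longest transcript as length, Pax8 at 44.7 CPM per kb passed Pax2 at 35.3, and Eya1 at 16.5 passed Sall1 at 11.6. The markers thus join progenitor genes (Pax2, Eya1, Sall1, Hoxa11, Gas1), early nephron genes (Pax8, Cdh6) and a stromal gene (Postn) in the same RNA. Whether they are read in the same cells cannot be told from bulk RNA, in which fewer cells of a kind and less RNA per cell cannot be told apart.

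Of the list of 31 nephron progenitor and metanephric mesenchyme genes, 14 were expressed, 45.2% against 49.9% of all protein-coding genes. The expressed members formed much of the network of Pax2, the EYA genes and Six4. Eya2 had 147 ± 9.53 CPM, Eya3 52.8 ± 3.78 and Eya4 33.3 ± 2.92, and per kilobase Eya2, at 49.5 CPM per kb, was the highest of the 4 EYA genes. Six4 was read at 41.7, 40.3, 27.9, 36.4 and 31.7 CPM, highest in replicate 1 and next in replicate 2. Gdnf, the ligand that draws in the ureteric bud, had 21.5, 23.1, 21.8, 24.6 and 32.5 CPM. Npnt, the nephronectin ligand of integrin alpha 8, had 85.1, 131, 128, 76.5 and 67.3 CPM and ranged by 1.94 times, whereas the integrin itself, Itga8, had 1 read in all.

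Several genes of the nephron progenitor and its mesenchyme had no or few reads, Six2 and Cited1 among them, while Pax2, Eya1, Sall1 and Hoxa11 were expressed (above). Six2 and Wt1 had no read in any of the 5 libraries, nor had Hoxc11, Hoxd11, Meox2, Crym, Tmem100, Fgf20, Tcf21 or Rspo1. Osr1, an early marker of the kidney field, had 6 reads in all, and Cited1 had 20, a mean of 0.323 CPM. Single reads were all that was seen of Uncx, Dach1 and Lin28b.

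The start-site windows of 4 of these genes are shown because they set expressed genes of the mesenchyme beside genes of it with no read. Hoxa11 and Hoxd11 are paralogues, and Pax2 and Six2 are of different families. Each is the RefSeq window from 250 bases before to 50 bases after the start (GRCm38.p6, 5′ to 3′ on the gene's strand), in lower case with CpG dinucleotides in capitals. The RefSeq start of Pax2 lies before the GENCODE gene start given above, and its window ends before that gene start. Pax2 (chr19:44755502-44755801, + strand) and Hoxa11 (chr6:52245761-52246060, - strand) are expressed, Six2 (chr17:85688205-85688504, - strand) and Hoxd11 (chr2:74679308-74679607, + strand) had no read.
Pax2: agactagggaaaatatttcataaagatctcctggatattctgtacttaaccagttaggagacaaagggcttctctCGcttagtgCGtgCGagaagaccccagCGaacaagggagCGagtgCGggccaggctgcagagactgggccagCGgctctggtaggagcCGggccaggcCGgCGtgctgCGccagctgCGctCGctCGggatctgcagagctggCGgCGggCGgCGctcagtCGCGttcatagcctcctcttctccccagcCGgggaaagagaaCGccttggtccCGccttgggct
Hoxa11: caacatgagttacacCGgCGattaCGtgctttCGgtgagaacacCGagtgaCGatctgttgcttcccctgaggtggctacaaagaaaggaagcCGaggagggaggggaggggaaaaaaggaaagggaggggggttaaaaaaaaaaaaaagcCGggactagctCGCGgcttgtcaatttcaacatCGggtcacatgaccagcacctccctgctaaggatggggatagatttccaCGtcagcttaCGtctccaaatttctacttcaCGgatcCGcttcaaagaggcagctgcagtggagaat
Six2: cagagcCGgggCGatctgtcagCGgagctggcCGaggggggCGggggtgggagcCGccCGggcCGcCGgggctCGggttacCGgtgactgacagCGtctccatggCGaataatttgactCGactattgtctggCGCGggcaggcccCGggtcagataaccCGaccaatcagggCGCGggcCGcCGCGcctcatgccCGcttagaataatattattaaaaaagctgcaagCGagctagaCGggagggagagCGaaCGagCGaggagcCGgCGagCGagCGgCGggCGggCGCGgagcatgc
Hoxd11: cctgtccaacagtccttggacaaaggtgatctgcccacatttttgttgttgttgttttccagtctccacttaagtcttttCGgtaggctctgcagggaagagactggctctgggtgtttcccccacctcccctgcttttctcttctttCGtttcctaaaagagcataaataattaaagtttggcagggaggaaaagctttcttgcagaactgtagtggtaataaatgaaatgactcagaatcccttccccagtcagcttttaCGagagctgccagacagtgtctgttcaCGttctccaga
The windows hold 23 CpG in Pax2, 15 in Hoxa11, 37 in Six2 and 4 in Hoxd11, so the window with the most CpG belongs to a gene with no read and the one with the fewest does as well. Over the 15869 protein-coding genes with such a window, CpG content ran with expression. The median ratio of observed to expected CpG was 0.795 for 8274 expressed genes, 0.388 for 2222 genes in between, 0.322 for 1185 genes below 0.1 CPM and 0.191 for 4188 genes with no read. A ratio of at least 0.6 was found in 78.4% of the windows of expressed genes and in 12.4% of those of genes with no read. The listed transcription factors differed less between the classes, with a median ratio of 0.757 for 104 expressed members and 0.667 for 53 members with no read. Listed kidney genes with no read had a median of 0.274 over 18 windows. These are descriptions of sequence, and no methylation was measured.

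Genes of the induced mesenchyme, renal vesicle and early nephron were read more fully, with 17 of 25 expressed, 68.0%. Notch2, the receptor that proximal nephron fate needs, had 923, 1033, 725, 719 and 751 CPM. Emx2, a homeobox gene of the urogenital epithelium, had 49.8, 44.3, 44.4, 48.8 and 43.6 CPM. Both genes varied by at most 1.44 times between libraries. Wnt4, a secreted inducer of nephron epithelium, was at 39.3, 31.1, 24.4, 26.2 and 26.9 CPM. The Iroquois genes of the forming tubule were graded, with Irx1 at 30.7 CPM per kb, Irx2 at 21.3 and Irx3 at 3.30. Lhx1, the LIM homeobox gene of the renal vesicle, was low at 4.15, 4.45, 1.61, 3.43 and 2.39 CPM. Sox9 had 68.6, 94.4, 48.5, 58.3 and 55.9 CPM, with replicate 3 lowest. Fgf8, Cdh4 and Bmp7, 3 genes of the renal vesicle or its inducers, had no read, and Dkk1 and Hes5 had 1 and 2 reads.

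The podocyte list showed an uneven picture in which 14 of 23 members, 60.9%, were expressed. Slit diaphragm and regulator genes were found both among the expressed members and among those with no or few reads. Kirrel, which encodes the slit protein NEPH1, had 698 ± 71.4 CPM, and the cytoskeletal genes Actn4 and Nes had 365 ± 18.9 and 365 ± 31.1 CPM. Foxc1, a forkhead regulator, had 107, 117, 95.6, 90.4 and 94.7 CPM, and Podxl, the podocalyxin gene, 89.6, 76.2, 78.2, 82.9 and 91.7 CPM. Nphs1 had 1 read, and Lmx1b, Tcf21, Ptpro and Wt1 had none. Several of the expressed members are also used in other cells, so their count does not mark podocytes.

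Only 5 of 20 proximal tubule genes were expressed, but 3 of them were high. Aqp1, the water channel of the proximal tubule and descending limb, had 1141, 1109, 1023, 935 and 832 CPM, and at 384 CPM per kb it ranked 48 among expressed protein-coding genes. Lrp2, the endocytic receptor megalin, had 530, 519, 358, 480 and 558 CPM, and its adaptor Dab2 had 131, 118, 104, 118 and 144 CPM. Cubn, the partner receptor cubilin, was read at 5.46 ± 0.702 CPM, 0.366 CPM per kb against 29.3 for Lrp2, and the anchor of cubilin, Amn, had a mean of 0.191 CPM. Of the transporters and the regulator Hnf4a little or nothing was read. Slc34a1, Slc22a6, Slc22a8, Hnf4a and Fbp1 had no read, Slc5a1 had 1, Slc7a9 had 2 and Slc3a1 averaged 1.03 CPM.

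Of 15 loop of Henle and distal tubule genes 5 were expressed, 33.3%, with summed levels of 87.5 ± 9.12 CPM. Atp1b1, a sodium pump subunit found in most cells, had 31.6, 32.8, 25.5, 33.6 and 32.0 CPM, lowest in replicate 3. Sim1, a bHLH-PAS factor, had 30.3 ± 4.78 CPM, Trpm6, a magnesium channel, 12.2 ± 1.78 CPM and Cldn19, a tight junction claudin, 10.2 ± 1.44 CPM. Umod, Kcnj1, Pvalb, Calb1 and Ptger3 had no read, and Slc12a1 and Slc12a3 had 1 and 2 reads. In the list of 24 ureteric bud and collecting duct genes 8 were expressed, 33.3%. Cdh16, the kidney-specific cadherin, was the highest of these per kilobase, with 148, 154, 220, 155 and 138 CPM and its peak in replicate 3. Tfcp2l1, a collecting duct transcription factor, had 136, 126, 154, 142 and 159 CPM. Gata3, needed for the nephric duct, had 31.5 ± 5.35 CPM. Wnt7b, which acts in the papilla, had 4.15, 5.04, 21.0, 5.38 and 7.43 CPM, and replicate 3 alone accounted for its wide range. Ret had no read, Wnt9b 2 and Wnt11 a mean of 0.423 CPM, so the bud's receptor for GDNF was not detected at this depth while its co-receptor Gfra1 had 7.73 ± 1.68 CPM.

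**Figure D2:**
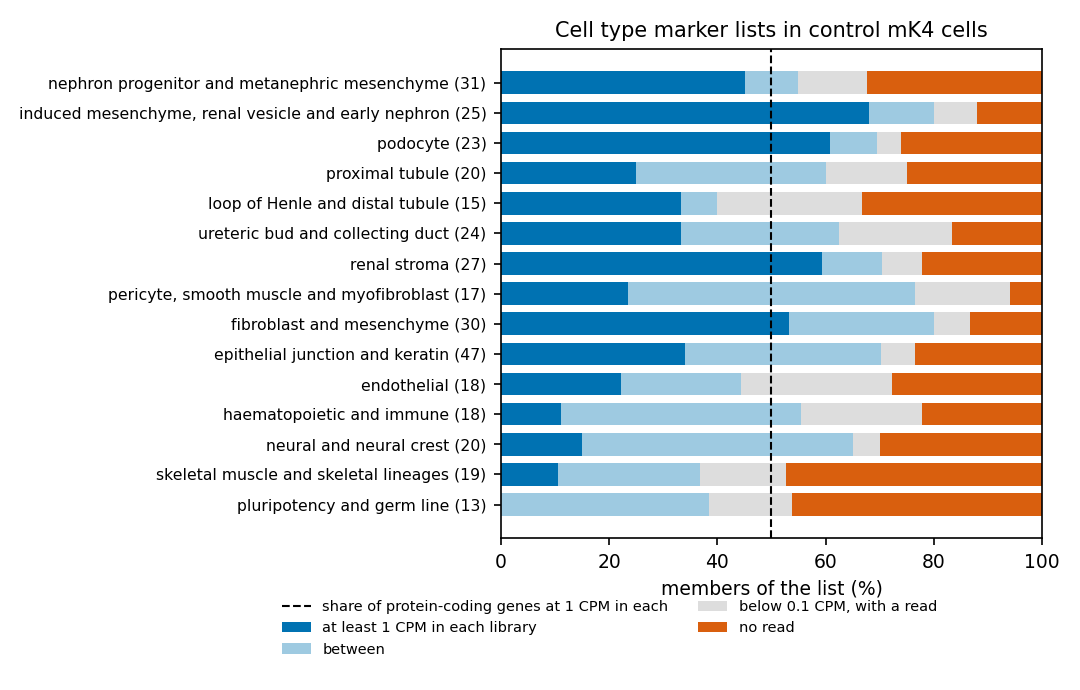
Share of each cell type list (horizontal axis, %; number of members in brackets) that was at least 1 CPM in each library, in between, below 0.1 CPM with a read, or without a read; the dashed line is the share of protein-coding genes at 1 CPM in each library, 49.9%. The induced mesenchyme, podocyte, renal stroma and fibroblast lists pass the dashed line, and the pluripotency list has no expressed member.

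Renal stroma genes were expressed in 16 of 27 cases, 59.3%, with Foxd1 among them. Foxd1, which marks the stromal progenitor, had 68.2, 59.3, 78.2, 64.9 and 75.5 CPM, and Tbx18, a T-box gene of the ureteric and stromal mesenchyme, 64.8, 66.3, 64.2, 77.7 and 77.4 CPM. Both were read in the same libraries as Pax2 and Eya1, whose proteins belong to the nephron lineage in vivo. Tnc, the matrix protein tenascin C, had 639, 652, 635, 652 and 779 CPM with replicate 5 highest, and Ntn1, the guidance cue netrin 1, 342 ± 48.6 CPM. The orphan nuclear receptor gene Nr2f2 had 174 ± 15.6 CPM and the TALE gene Meis2 148, 132, 91.9, 104 and 101 CPM. Of the PDGF receptors Pdgfrb had 34.1, 34.9, 43.1, 42.7 and 36.4 CPM, whereas Pdgfra averaged 0.337 CPM from 20 reads. Meis1 had 1 read beside the 7607 of Meis2. Aldh1a2, the retinoic acid synthesis enzyme of cortical stroma, had no read, nor had Tcf21, Alx1, Lum, Penk or Smoc2.

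Contractile and pericyte genes were mostly low. Only Smtn, Mcam, Notch3 and Tagln of 17 members were expressed, 23.5%, and Tagln had 1.74 ± 0.502 CPM. Acta2, the smooth muscle actin of myofibroblasts, had 6 reads, a mean of 0.0870 CPM, and Rgs5, a pericyte gene, had none. Of 30 fibroblast and mesenchyme genes 16 were expressed, 53.3%. Vim, the intermediate filament of mesenchymal cells, had 1877, 1774, 2152, 2196 and 2548 CPM and Fn1, fibronectin, 2736, 2302, 2614, 3185 and 4092 CPM, highest in replicate 5. Cdh2, the mesenchymal N-cadherin, had 247 ± 21.9 CPM. Of transcription factors of the mesenchymal state, Zeb1 was at 89.1 ± 5.68 CPM, Zeb2 at 63.8 ± 6.31, Twist2 at 27.0 ± 5.12, Snai2 at 11.9 ± 3.17 and Snai1 at 2.70 ± 0.670, and Twist1 had no read. Prrx2 had 10.0 ± 0.584 CPM and Prrx1 2 reads. Thy1, Fap and Lum had no read, and Cd34 had 1.

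Epithelial junction and keratin genes were expressed in 16 of 47 cases, 34.0%. Tjp1, the junction scaffold ZO-1, had 293 ± 21.5 CPM, Jup, plakoglobin, 134 ± 12.8 CPM, and Cdh3, P-cadherin, 61.6, 63.5, 61.7, 67.1 and 87.4 CPM with replicate 5 highest. Cdh1, E-cadherin, reached 1.65, 0.815, 1.35, 1.02 and 2.65 CPM and missed the limit in replicate 2. Epcam, Krt18, Krt5, Krt20, Cldn3, Cldn4, Cldn6, Esrp1, Ovol2, Dsg2 and Dsc2 had no read, and Krt8 had 2. Cldn1 at 35.7 ± 3.35 CPM and Cldn2 at 22.0 ± 6.81 CPM were the claudins expressed in this list. Of the cadherins in these lists Cdh6, Cdh16, Cdh2 and Cdh3 stood at 59.2, 43.0, 30.7 and 15.6 CPM per kb, and Cdh1 at 0.327.

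Lists of cell types foreign to the line held many genes with no read and a few at clear levels. Of 18 endothelial genes 4 were expressed, and Cdh5, Tie1, Sox17, Sox18 and Robo4 had no read, while Kdr, Tek and Vwf had 1 read each. Ets1, at 122 ± 8.93 CPM, is used in many cells, and Flt1, a VEGF receptor, had 5.85, 5.26, 12.8, 12.5 and 16.8 CPM with no overlap between replicates 1 and 2 and the other 3. The haematopoietic list summed to 8.13 ± 1.69 CPM over 18 genes, with Csf1r at 3.81 ± 1.52 CPM and Cd68 at 2.38 ± 0.916 the only expressed members, and Ptprc at a mean of 0.0615 CPM. Of 20 neural genes 3 were expressed, Tubb3 and Ncam1 among them, and Ncam1, a cell adhesion molecule that kidney mesenchyme also uses, had 234, 252, 247, 241 and 255 CPM. Scx, a tendon factor, at 46.0 ± 6.52 CPM and Runx2, a bone factor, at 44.2 ± 5.02 CPM were the expressed members of 19 muscle and skeletal genes, with Myod1, Myog, Myf5, Pax3, Pax7 and Pparg among 9 with no read. None of the 13 pluripotency and germ line genes was expressed.

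Among collagen genes Col6a1, Col12a1, Col5a1 and Col18a1 were high and the chains of collagen I were low. These are RNA levels of single chains and do not give amounts of whole collagens. Of 33 collagen genes 13 were expressed, 39.4%. Col6a1 had 851, 851, 879, 795 and 823 CPM, Col12a1 964, 904, 680, 1060 and 1265 CPM, Col5a1 606, 629, 531, 595 and 661 CPM and Col18a1 538, 512, 654, 501 and 544 CPM. Col18a1, the source of endostatin, was highest in replicate 3, and Col12a1 was highest in replicate 5. Collagen VI is built from 3 chains, and here Col6a1 and Col6a2 stood at 192 and 35.6 CPM per kb while Col6a3 had 0.0789. The chains of collagen I, the main fibrillar collagen of fibroblasts, were low, with Col1a1 at 2.74, 2.37, 3.89, 6.49 and 5.04 CPM and Col1a2 at 0.793, 0.445, 1.01, 1.67 and 1.96 CPM. Col3a1 had 6.47 ± 1.38 CPM.

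Basement membrane genes were expressed in 16 of 27 cases, 59.3%, and summed to 6958 ± 589 CPM. The type IV collagen chains differed widely. Col4a5 and Col4a6, which share a start region on the X chromosome, had 153 and 93.3 CPM per kb, the ubiquitous Col4a1 and Col4a2 had 64.5 and 84.2, and Col4a3 and Col4a4, which mature glomeruli use, had 1.08 and 2.64. In CPM, Col4a5 was read at 1082, 1151, 1105, 892 and 918 and Col4a6 at 850, 882, 718, 631 and 640. Agrn, agrin, had 1265, 1261, 1088, 1073 and 1124 CPM and Hspg2, perlecan, 1088, 1092, 855, 1184 and 1367 CPM, both proteoglycans of this layer. Among laminin chains Lama5, Lamb1, Lamb2 and Lamc1 were expressed, at 228 ± 38.9, 235 ± 23.4, 264 ± 21.2 and 426 ± 45.0 CPM, while Lama1 and Lama2 had no read and Lama4 had 1. The nidogens were opposite, with 27294 reads of Nid2 and 3 of Nid1. Fras1, the Fraser syndrome gene, had 155 ± 33.1 CPM, and its partners Frem1 and Frem2 had no read.

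Of 52 further matrix glycoproteins and proteoglycans 25 were expressed, 48.1%. Spp1, osteopontin, had 974, 902, 1379, 1188 and 1276 CPM. At 694 CPM per kb it was the highest of the members with an exon length. With the longest transcript as length Sparc, at 770, passed Spp1 at 759. Sparc, a collagen-binding glycoprotein, was steady at 1776, 1782, 1844, 1688 and 1770 CPM. Thbs1, thrombospondin 1, had 1400, 1866, 860, 1118 and 1183 CPM, lowest in replicate 3, and Abi3bp 677, 633, 305, 462 and 380 CPM. Cyr61, a matricellular protein induced by serum, had 1264 ± 270 CPM, without a level per kilobase because its symbol has no match in the gene models used. The glypicans were split, with Gpc1 at 511 ± 32.5 CPM and Gpc6 at 139 ± 15.2 and no read of Gpc3 or Gpc5. All 4 syndecan genes were expressed, led by Sdc4 at 128 CPM per kb. Eln, Fbln5, Lum, Hapln1, Sparcl1 and Thbs4 also had no read, and Fbn1 and Fbn2 had 24 and 1 reads.

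Of 45 genes for matrix remodelling 34 were expressed, 75.6%. Serpinh1, the collagen chaperone HSP47, led at 431 CPM per kb, followed by the protease gene Adamts1 at 156 and the inhibitor Timp2 at 133. Adamts1 had 889, 839, 679, 866 and 869 CPM, and Timp2 548, 543, 528, 472 and 509 CPM. The classical fibroblast proteases were low or absent, with Mmp2 at 1.81 ± 0.467 CPM, Mmp14 at a mean of 0.102 CPM and no read of Mmp3, Mmp10, Mmp13 or Mmp16. Among crosslinking enzymes Loxl1 led at 54.8 CPM per kb, and Lox had 0.135.

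Integrin genes were expressed in 16 of 26 cases, 61.5%. Itgb1, the beta chain shared by most matrix receptors, had 1004, 998, 1060, 996 and 1081 CPM. Its alpha partners ranked Itga9 at 34.3 CPM per kb, Itga3 at 26.2, Itgav at 21.7, Itga7 at 15.1, Itga5 at 12.3 and Itga6 at 3.28. With the longest transcript Itgav at 33.1 passed Itga3 at 30.7, with Itga7 at 30.3 close to both. Itga9, a receptor for tenascin C, had 305, 305, 260, 227 and 224 CPM. Itga8, Itga4 and Itgax, with 1, 2 and no reads, lay at the other end.

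Among 55 receptor tyrosine kinases 26 were expressed, 47.3%. Axl, a TAM receptor, led at 68.9 CPM per kb with 319, 298, 383, 331 and 403 CPM, followed by the collagen receptor Ddr2 at 48.3 CPM per kb with 489, 440, 420, 425 and 466 CPM. With the longest transcript as length the second place went to Ryk, a Wnt receptor, at 67.3 against 52.1 for Ddr2. Met, the receptor of HGF, had 136 ± 16.8 CPM while its ligand gene Hgf had no read. Egfr had 237, 241, 166, 166 and 178 CPM, lower in replicates 3 to 5 than in replicates 1 and 2. Among FGF receptors Fgfr2 had 81.0 ± 17.4 CPM, Fgfr3 10.6 ± 1.36, Fgfr1 7.05 ± 2.32 and Fgfr4 a mean of 0.0429. Fgfr1 is the receptor that progenitor survival is known to need together with Fgfr2, and it was lower per kilobase, at 0.714 CPM per kb against 7.84. Kit had no read, while its ligand Kitl had 188 ± 25.8 CPM. Ret, Erbb4, Flt4, Ntrk2, Ror2, Tie1, Epha3, Epha6, Ephb1 and Ros1 had no read either.

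Of a list of 22 Wnt receptors, coreceptors and planar polarity genes 16 were expressed, 72.7%. Per kilobase Celsr2 led at 49.5, then Fzd6 at 27.5 and Vangl1 at 22.6 CPM per kb. Celsr2 and Vangl1 are planar polarity genes and not Wnt receptors. Fzd5 ranged by 2.82 times, with 81.9, 143, 50.8, 61.5 and 62.3 CPM. Fzd10 had no read and Lgr5 1. Of 18 receptors and coreceptors for TGF-beta and BMP 12 were expressed, 66.7%. Tgfbr2 had 658, 569, 569, 539 and 603 CPM, and Bmpr1a 125, 121, 126, 121 and 127 CPM with a narrow spread, while Bmpr1b had 1 read. Of 53 Notch, hedgehog, plexin, cytokine and other receptors 34 were expressed, 64.2%. Plxnb2, a semaphorin receptor, had 1028, 1020, 998, 872 and 996 CPM, lowest in replicate 4. The hedgehog genes Smo, Ptch1, Cdon and Gas1 were all expressed, at 24.9, 6.19, 26.1 and 193 CPM per kb. Their ligands were not, with Shh at 1 read, Dhh at 1 and Ihh at a mean of 0.228 CPM. The angiotensin receptors Agtr1a and Agtr2, the endothelin receptors Ednra and Ednrb and the slit receptors Robo1, Robo3 and Robo4 had no read.

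Of 44 growth factor genes 21 were expressed, 47.7%. Among members with an exon length, Igf2 was followed by Csf1 at 78.7, Kitl at 31.7, Vegfb at 18.8 and Pdgfc at 16.4 CPM per kb. The last 2 were level at 23.5 and 23.6 with the longest transcript. Csf1, the macrophage growth factor, had 373, 428, 428, 380 and 468 CPM, and its receptor Csf1r had 2.93, 2.74, 2.87, 4.17 and 6.32 CPM. FGF ligands were nearly silent. Fgf5, Fgf8, Fgf10 and Fgf20 had no read, Fgf2, Fgf7 and Fgf9 averaged 0.473, 0.317 and 0.113 CPM, and only Fgf1 met the limit, at 3.45 ± 0.681 CPM. Figf, the VEGF-D gene, had 131 ± 13.7 CPM, with no level per kilobase because its symbol has no match. It therefore has no place in the order above. Vegfc, Hgf, Pdgfd, Ereg, Ntf3 and Ptn had no read as well.

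Wnt, BMP, hedgehog and Notch ligands and their antagonists were expressed in 22 of 66 cases, 33.3%. Fstl1, a secreted BMP antagonist, led at 68.0 CPM per kb. The Wnt genes that met the limit were Wnt4, Wnt5a, Wnt6, Wnt7b, Wnt2b and Wnt9a, from 7.05 CPM per kb for Wnt4 to 0.546 for Wnt9a. Wnt5a, a noncanonical ligand, was even at 32.9, 32.2, 35.9, 33.8 and 35.9 CPM. All 3 TGF-beta genes were expressed, Tgfb3 highest at 23.4 CPM per kb. Bmp6 had 63.2 ± 14.6 CPM, whereas Bmp2 and Bmp7 had no read and Bmp4 had 1. Jag2 stood at 48.3 ± 2.72 CPM and Jag1 at 7.99 ± 1.48.

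Transcription factors were read family by family. In the PAX, SIX-family, EYA, DACH and SALL genes 12 of 25 genes were expressed, 48.0%, and besides those already given Sall2 had 41.1 ± 2.52 CPM, Six5 14.7 ± 0.646 and Pax9 3.38 ± 0.261. Pax1, Pax3, Pax4, Pax5, Pax7, Six6, Sall3 and Sall4 had no read. Sall1 and Sall2 were thus the SALL genes in use, at 11.6 and 7.56 CPM per kb.

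All expressed HOX genes lay in the HoxA and HoxB clusters. Of 11 Hoxa genes 9 were expressed and of 10 Hoxb genes 8, whereas none of 9 Hoxc and none of 9 Hoxd genes was. The clusters held 26582, 29291, 29 and 3 reads in that order. Hoxb9, 278, 270, 264, 270 and 276 CPM in replicates 1 to 5, and Hoxa11 were the highest, at 106 and 102 CPM per kb. Next came Hoxb8 at 24.4, Hoxb6 at 22.6 and Hoxa10 at 19.3 CPM per kb, or 24.7 for Hoxa10 with the longest transcript as length. Hoxa13 and Hoxb13, the most 5′ genes, were low, with 4 and 38 reads. Of the 3 HOX11 genes that kidney formation uses only Hoxa11 was read, since Hoxc11 and Hoxd11 had none. Antisense transcripts overlap several HOX genes, and whether the counting used strand is not given in the sources used here, so reads of overlapping genes cannot be told apart.

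**Figure D3:**
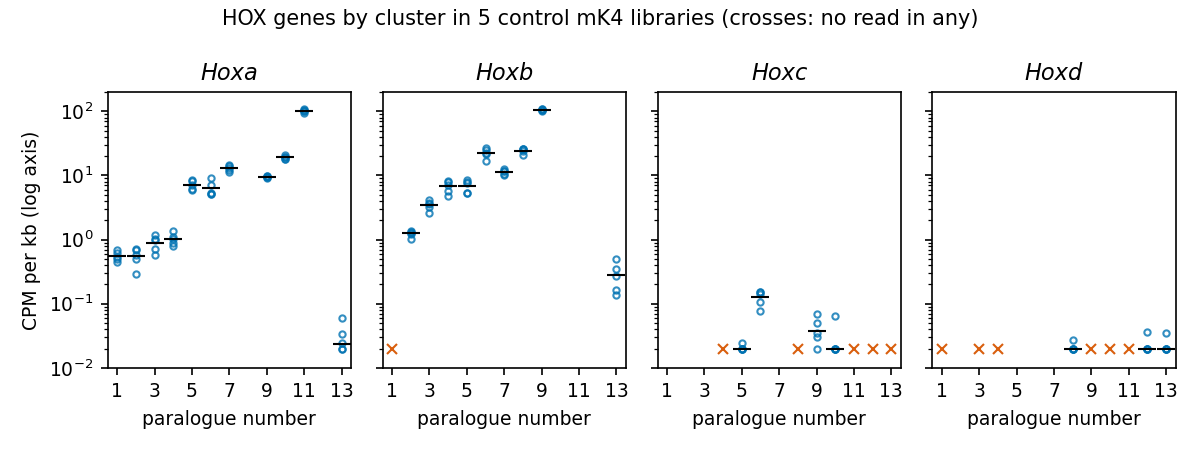
Level of each HOX gene (vertical axis, CPM per kb, log scale) by paralogue number (horizontal axis) in the 4 clusters; circles are the 5 control libraries, bars their mean, crosses genes with no read, and values under 0.02 are drawn at 0.02. The Hoxa and Hoxb panels reach 102 and 106 CPM per kb at Hoxa11 and Hoxb9, and the Hoxc and Hoxd panels stay near the floor.

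Among 63 other homeobox genes 29 were expressed, 46.0%. Cux1 had 264 ± 17.3 CPM. Msx1, Msx2, Dlx5, Isl1, Lmx1a, Lmx1b, Otx2 and Satb1 were among 15 with no read.

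Forkhead genes were expressed in 23 of 40 cases, 57.5%. Per kilobase Foxm1, a regulator of mitosis, led at 38.5, then Foxk1 at 36.6, Foxk2 at 32.1, Foxc1 at 17.3 and Foxp4 at 14.8 CPM per kb, with Foxp4 at 18.3 above Foxc1 when the longest transcript gives the length. Foxd1 exceeded Foxd2, at 13.7 against 1.45 CPM per kb, and Foxd3 had 3 reads while Foxd4 had none. Foxf2 had 31.6 ± 1.84 CPM and Foxf1 13.6 ± 0.772. Foxa1, usually read in epithelia, had 17.3, 17.4, 18.6, 15.8 and 16.4 CPM, and Foxa2, Foxi1, Foxb1, Foxe1, Foxe3, Foxn4 and Foxr1 had no read.

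Of 24 SOX and TCF genes 8 were expressed, 33.3%, with Sox4 at 136 ± 14.1 CPM and Sox11 at 149 ± 14.5 CPM next to Sox9. Tcf7l1 and Tcf7l2, mediators of Wnt signals, had 49.5 ± 7.92 and 36.0 ± 3.45 CPM. Of 31 GATA, T-box, NFI, TEAD and RUNX genes 16 were expressed, 51.6%. Nfix had 533, 490, 439, 450 and 472 CPM, Nfic 325 ± 21.5 and Nfib 174 ± 16.3, while Nfia averaged 0.313 CPM from 22 reads. Tbx15 had 153, 148, 125, 118 and 124 CPM, and Tbx1, Tbx3, Tbx4, Tbx5, Tbx20, Tbx21 and Gata4 had no read. All 4 TEAD genes and the coactivators Yap1 and Wwtr1 were expressed.

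Among 45 basic helix-loop-helix genes 24 were expressed, 53.3%. Hes1, the Notch target repressor, had the highest level at 146 CPM per kb and also a wide range, 265, 622, 112, 270 and 217 CPM. Id1, Id2 and Id3 had 44.8 ± 18.7, 38.1 ± 17.0 and 92.3 ± 32.2 CPM and Id4 had no read. Hif1a was steady at 272, 260, 242, 254 and 255 CPM, and Epas1 had 2 reads. Of 48 nuclear receptors 22 were expressed, 45.8%. Vdr, the vitamin D receptor, led at 34.2 CPM per kb with 200, 195, 191, 180 and 201 CPM, followed by Nr2f6 at 33.6 and Nr3c1, the glucocorticoid receptor, at 24.5 CPM per kb. With the longest transcript as length the order was Nr2f6 at 45.2, Vdr at 44.2 and Nr2f2 at 41.2, with Nr3c1 at 29.2. Esr1, an oestrogen receptor gene, had a mean of 0.171 CPM. The retinoic acid receptors Rara and Rarg had 52.3 ± 2.10 and 75.4 ± 5.85 CPM, and Rarb averaged 0.853.

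Of 31 imprinted genes 14 were expressed, 45.2%. Peg3, a zinc-finger gene read from the paternal allele, had 2710, 2486, 2107, 2443 and 2764 CPM. Igf2 and H19 are neighbours with opposite imprints, and they stood at 117 and 0.0399 CPM per kb, with 6 reads of H19 in all. Peg10 had 526, 520, 448, 630 and 749 CPM and Grb10 366 ± 47.0. Meg3, Mirg, Ascl2, Ndn, Magel2 and Mkrn3 had no read, and Dlk1 and Rian had 3 and 1. Igf2r, the scavenger receptor for IGF2, had 171, 172, 143, 134 and 156 CPM.

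The cells had the transcripts of dividing cells. All 33 cell cycle genes were expressed, with Mki67 at 1821, 1699, 1274, 1517 and 1562 CPM and Top2a at 1064, 1049, 940, 1013 and 1096 CPM. The D-type cyclins of G1 were low beside them. Ccnd3 had 4.11 CPM per kb, Ccnd1 2.34 and Ccnd2 1.15, against 61.1 for Ccna2 and 68.7 for Ccnb2. Cdkn2a and Cdkn2c, inhibitors of the G1 kinases, had 118 ± 9.27 and 224 ± 24.7 CPM. Of 27 glycolysis and hypoxia genes 23 were expressed, 85.2%, led by Pkm at 150 CPM per kb. Gapdh was at 34.5, 34.4, 47.0, 43.2 and 41.1 CPM, 9.69 CPM per kb, below Pgk1 at 31.8. Genes with near-identical processed copies, such as Gapdh, Eno1, the ribosomal proteins and the replication-dependent histones, can lose or share reads in counting, and their levels are uncertain for that reason.

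The 25 protein-coding genes of highest mean CPM, a choice that favours long genes, mixed cytoskeletal, matrix and mitochondrial genes. Actb had 8131, 8881, 8665, 8056 and 9645 CPM, and among the others were mt-Co1 at 6318 ± 758, Fn1 at 2986, Peg3, Postn, Eef1a1 at 2474, Vim and Drosha. Drosha, the nuclear microRNA processing enzyme, had 2153, 2120, 2012, 2022 and 2176 CPM, 353 CPM per kb, rank 59 among expressed protein-coding genes. Per kilobase Lgals1 at 836, S100a6 at 673 and S100a11 at 646 CPM per kb joined the mitochondrial, actin and histone genes at the top, and with the longest transcript S100a6 at 1175 passed Lgals1 at 944. Of the stress list 21 of 22 members were expressed, with Hspa5 at 128 CPM per kb and Atf4 at 112, and Nqo1 was the exception at a mean of 0.337 CPM.

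The libraries gave the same picture for most genes. Among 9921 genes of at least 10 mean CPM the median SD of log2 CPM was 0.128, with quartiles of 0.0891 and 0.183, against 0.0590 from counting alone. The highest library exceeded the lowest by a median of 1.24 times, 87.7% of genes stayed under 1.5 times, and 219 genes, 2.21%, passed 2 times. The biological coefficient of variation, the spread beyond counting, was 12.4% over 14270 genes of at least 1 mean CPM. It was 11.3% over the 9921 genes of at least 10 mean CPM. Without replicates 3 and 5 it was 9.93%, over 14492 genes of at least 1 mean CPM in the libraries kept. Spread fell with level from a median SD of 0.418 at 1 to 3 CPM to 0.113 at 100 to 300 CPM, and was 0.195 for the 65 genes of at least 1000 CPM, where counting gives 0.0105.

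**Figure D4:**
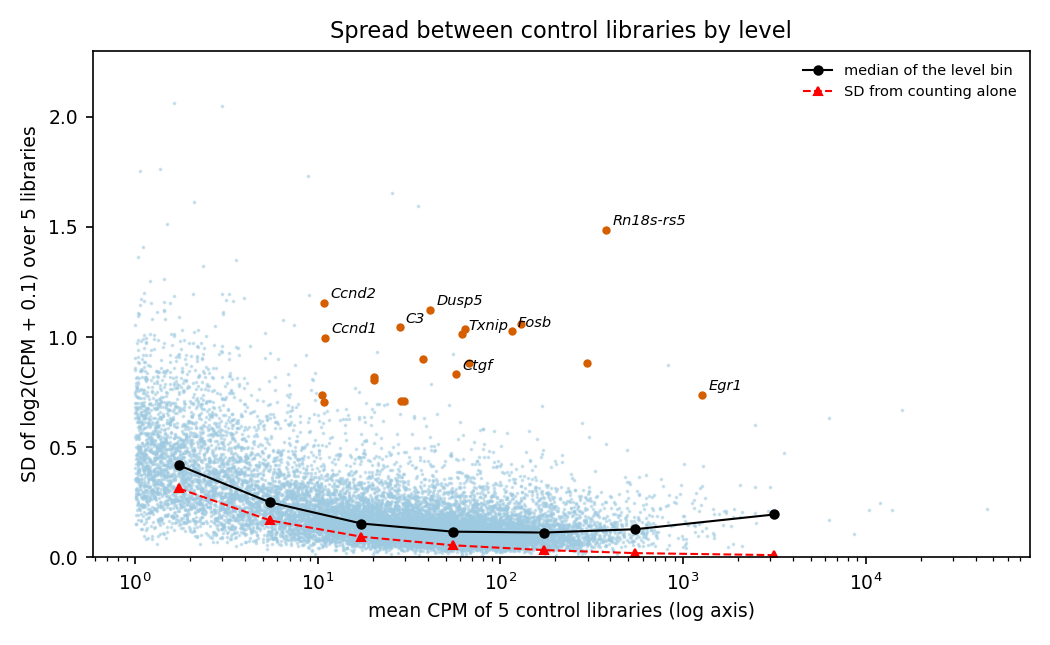
SD of log2(CPM + 0.1) over the 5 control libraries (vertical axis) against mean CPM (horizontal axis, log scale); dots are genes of at least 1 mean CPM, black circles the medians of level bins, red triangles the SD that counting alone gives, and orange points the 20 most variable genes. Medians run from 0.418 in the lowest bin to 0.113 at 100 to 300 CPM, above the counting SD in every bin, and the orange points lie at 0.71 and above. The orange points were chosen among genes of at least 10 mean CPM whose symbol is not made of a clone or accession number.

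The 10 most even genes are given as a description. Nuf2, a kinetochore subunit, had 79.1, 79.6, 80.3, 79.1 and 80.1 CPM, Bub1b, a spindle checkpoint kinase, 202, 201, 201, 199 and 204 CPM and Mastl, the Greatwall kinase, 65.1, 64.0, 65.1, 64.4 and 64.4 CPM. Psip1, Cript, Cdk16, Ankrd13c, Itch, Ppme1 and Sh3pxd2a completed the 10, each with an SD of log2 CPM of 0.01 or 0.02. Counting alone gives a median of 0.0940 at 10 to 30 CPM and 0.0552 at 30 to 100 CPM. It gives 0.0333 at 100 to 300 CPM and 0.0196 at 300 to 1000 CPM. The 10 genes lie within these levels, so their order is below what these depths resolve.

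The 20 least even genes of at least 10 mean CPM, with the same kind of symbol left out, are described in 3 groups. The groups were drawn after the values were seen and were not tested. Without replicates 3 and 5, 12 of the 20 stayed among the 20 least even. The first group is the immediate early response, the genes that serum and handling induce within minutes, of which 29 of 30 were expressed. Egr1, a zinc-finger factor, had 1602, 2114, 563, 1179 and 906 CPM in replicates 1 to 5. Fosb, an AP-1 subunit, had 68.2, 217, 37.9, 172 and 79.1 CPM, and Egr2 63.0, 145, 21.4, 56.3 and 33.7 CPM. All 3 were highest in replicate 2 and lowest in replicate 3. Dusp5, a phosphatase that dampens ERK, had 44.9, 98.1, 12.6, 29.4 and 20.4 CPM, Nr4a1, an orphan nuclear receptor, 57.0, 115, 25.8, 97.1 and 41.7 CPM and Egr3 29.5, 75.8, 15.8, 47.0 and 20.9 CPM, in which replicate 2 was again highest and replicate 3 lowest. Arc had 24.6, 39.7, 12.6, 13.9 and 9.99 CPM and was lowest in replicate 5. Hes1, given above, had the same highest and lowest libraries as Egr1. Over the 27 members of at least 10 mean CPM the mean log2 deviation from each gene's own mean was -0.07, 0.56, -0.59, 0.20 and -0.10. Jund, a constitutive AP-1 subunit, did not share the pattern, at 154, 169, 183, 157 and 169 CPM, nor did Fosl2 range widely, at 1.29 times.

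The start-site windows of Dusp5, Fosb, Egr2 and Nr4a1, the immediate early members among the 20 most variable genes that have a RefSeq window in the table, are shown because their levels moved together. They run 5′ to 3′ on the gene's strand in GRCm38.p6, with GC boxes (GGGCGG, either strand) and CArG boxes, the binding sequence of serum response factor, in capitals. Dusp5 lies at chr19:53528895-53529194 (+), Fosb at chr7:19309996-19310295 (-), Egr2 at chr10:67535249-67535548 (+) and Nr4a1 at chr15:101266596-101266895 (+).
Dusp5: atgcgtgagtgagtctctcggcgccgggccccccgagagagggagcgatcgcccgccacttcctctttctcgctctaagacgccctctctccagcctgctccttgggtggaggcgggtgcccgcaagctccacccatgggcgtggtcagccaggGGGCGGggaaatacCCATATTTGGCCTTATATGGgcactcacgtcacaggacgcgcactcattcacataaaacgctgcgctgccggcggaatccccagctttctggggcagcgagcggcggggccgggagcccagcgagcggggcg
Fosb: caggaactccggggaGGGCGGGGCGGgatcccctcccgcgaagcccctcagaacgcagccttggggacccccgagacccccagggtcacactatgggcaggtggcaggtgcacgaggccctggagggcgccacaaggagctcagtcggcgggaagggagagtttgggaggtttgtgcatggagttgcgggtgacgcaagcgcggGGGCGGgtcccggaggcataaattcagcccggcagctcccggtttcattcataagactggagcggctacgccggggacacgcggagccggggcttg
Egr2: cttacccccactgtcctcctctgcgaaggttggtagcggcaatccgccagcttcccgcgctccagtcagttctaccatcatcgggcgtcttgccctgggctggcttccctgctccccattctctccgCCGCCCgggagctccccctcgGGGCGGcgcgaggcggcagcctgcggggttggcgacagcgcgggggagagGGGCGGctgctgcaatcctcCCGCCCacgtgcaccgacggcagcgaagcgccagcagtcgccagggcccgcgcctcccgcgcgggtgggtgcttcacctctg
Nr4a1: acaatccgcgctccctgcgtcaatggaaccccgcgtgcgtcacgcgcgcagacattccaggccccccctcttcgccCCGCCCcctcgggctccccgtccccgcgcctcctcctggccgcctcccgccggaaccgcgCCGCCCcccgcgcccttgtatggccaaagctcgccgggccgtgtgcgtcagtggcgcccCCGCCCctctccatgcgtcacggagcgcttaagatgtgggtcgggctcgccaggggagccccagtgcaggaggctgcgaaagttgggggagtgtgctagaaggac
A CArG box was found in 2 of 21 immediate early windows, 9.52%, those of Dusp5 and Zfp36, in 1.46% of all 15869 protein-coding windows and in 1.22% of those of expressed genes. A GC box was found in 17 of the 21, 81.0%, against 48.3% of all windows and 68.1% of those of expressed genes. The sequence TATAAA was in 3 of them, 14.3%, against 12.8% of all windows and 6.15% of those of expressed genes, and TGACTCA in none, against 4.55% and 3.13%. The windows reach only 250 bases before the start, and no binding was measured.

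A second group was low in replicates 1 and 2. Ccnd2, a G1 cyclin, had 3.54, 3.85, 22.1, 9.83 and 14.9 CPM and Ccnd1 5.18, 3.78, 14.0, 12.3 and 19.7 CPM. Ctgf, a matricellular YAP target, had 34.4, 24.2, 50.9, 72.2 and 104 CPM, Cdsn, corneodesmosin, 12.9, 8.75, 17.0, 25.1 and 38.1 CPM and Cth, the cystathionine lyase, 18.6, 15.0, 28.1, 37.1 and 50.5 CPM. Flt1 and Gvin1, a GTPase gene, followed, with Gvin1 at 19.1, 13.0, 40.6, 29.5 and 40.0 CPM. In each of these 7 genes both of replicates 1 and 2 lay below each of the other 3. Txnip, which restrains glucose uptake, ran the other way with 133, 72.7, 51.9, 29.6 and 22.7 CPM, highest in replicate 1.

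The third holds the rest. C3, the complement protein, had 13.5, 16.4, 77.6, 17.3 and 15.0 CPM, with replicate 3 far above the others, and Wnt7b and Cdh16 above peaked in that library too. Rn18s-rs5, a ribosomal RNA fragment, had 447, 583, 273, 48.7 and 546 CPM, and Lars2, a mitochondrial tRNA synthetase gene, 142, 193, 84.6, 34.1 and 199 CPM. Both were lowest in replicate 4 and next lowest in replicate 3, and whether they share reads was not tested. Col4a3 had 4.88, 11.5, 18.8, 8.07 and 10.8 CPM.

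Group means are means over many genes and are not set against single genes. The 55 ribosomal protein genes of at least 10 mean CPM deviated by -0.23, -0.25, 0.20, 0.08 and 0.20 on the log2 scale in replicates 1 to 5, and their summed level ran from 5461 to 7791 CPM. Cell cycle genes stayed within -0.08 and 0.11, HOX genes within -0.20 and 0.12, and basement membrane genes within -0.17 and 0.21. The long nuclear RNA Malat1 had 3005, 3399, 1378, 3022 and 1604 CPM, low in replicates 3 and 5. How far RNA quality, culture state or library making contribute to these shifts was not tested.

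**Figure D5:**
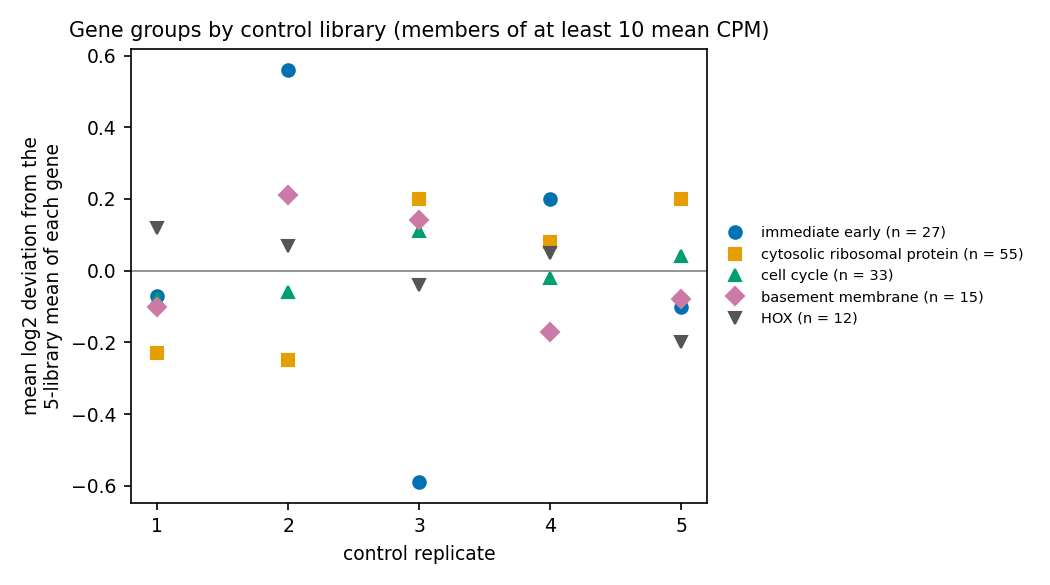
Mean log2 deviation (vertical axis) of 5 gene groups from each gene's 5-library mean, by control replicate (horizontal axis); each point is the mean over the members of at least 10 mean CPM, whose number is in the legend. Immediate early genes range from -0.59 in replicate 3 to 0.56 in replicate 2, ribosomal protein genes from -0.25 to 0.20, basement membrane genes from -0.17 to 0.21 and HOX genes from -0.20 to 0.12.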

How the data were processed

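RNA-seq libraries of 5 control samples were used, described as 1 group without a test. The authors deposited raw counts per gene symbol, made with featureCounts on mm10 per the submitters' processing notes, which also name R 3.4.3 and DESeq2 1.18.1. The aligner, annotation, strand setting and library kit go unstated in these sources. The deposited normalized tables were not used, and 1 column of the count table that matches no sample was left out. From the counts, CPM were computed as count over library total times a TMM factor (edgeR 4.0.16, R 4.3.3), and spread as the SD of log2(CPM + 0.1). Exon lengths came from GENCODE models, which matched 91.7% of symbols and 96.2% of counts. The limit for a count of 0 was 3 counts. The named genes are the markers, Foxd2, the 5 members of highest level and those with no read in each of 43 lists, the 25 genes of highest CPM, the 20 most and 10 least variable, and further members that account for a list. Some genes of these lists are not reported here, though the list counts include them. Members and lists were chosen with earlier results of these data known. Promoter windows were RefSeq's, 1 per gene, nearest to the gene start. The spread measures were tested on simulated data. Alternatives were the expression threshold, the normalization, exon length and leaving out libraries.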

Additional observations from a re-analysis of the deposited data

Results flagged for a closer look

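In each group of 5 libraries the gap of the highest or lowest library to its neighbour was compared with the whole range (Dixon's criterion), which by chance flags about 1 in 20. Of 296 genes of at least 1 mean CPM whose values are given or that the naming rule chose, and 42 list sums, 17 passed, a share near that of chance. Replicate 3 was alone with high values of Cdh16 (220 CPM), Col18a1 (654 CPM), Ccnb2 (118 CPM), Cldn2 (33.8 CPM), Wnt7b (21.0 CPM) and C3 (77.6 CPM) and with low values of Atp1b1 (25.5 CPM), Adamts1 (679 CPM) and Nipbl (1284 CPM). Replicate 5 was alone with high values of Tnc (779 CPM), Cdh3 (87.4 CPM), Cdh2 (286 CPM) and Gdnf (32.5 CPM), and of the summed collagen list (4035 CPM) and the summed matrix remodelling list (4962 CPM). Pax2 was high in replicate 1 (172 CPM) and Plxnb2 low in replicate 4 (872 CPM). For C3 the gap made up 0.940 of the range, the widest of the 17.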

How the results depend on the processing

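No paired analysis was possible because only 1 group was described. Genes expressed numbered 14559 at 0.5 CPM and 12160 at 2 CPM against 13245, were 13188 to 13245 under the other normalizations, and 13301 to 13455 with 1 library left out. Genes with no read ran from 19763 to 20203 with 1 library left out. The list counts stayed within 1.5 times except the endothelial and haematopoietic lists at 2 CPM, with 2 and 1 members. Levels of the 9 markers and Foxd2 moved by less than 1 SD in all 90 alternatives. Leaving out 1 or 2 of 5 libraries cannot move their mean by 1 SD. Only the alternatives of normalization could therefore have shown such a move. The median SD of log2 CPM was 0.160 for genes of at least 1 mean CPM, 0.337 for all genes with a read, 0.0972 without replicates 3 and 5, and 0.114 (without replicate 3) to 0.133 with 1 library left out. For genes of at least 1 mean CPM in the libraries kept, the biological coefficient of variation was 9.93% without replicates 3 and 5. It was 11.5% to 13.4% with 1 library left out. With the longest transcript as length, 159 of 311 levels per kilobase moved by at least 1 SD, 64 rose above 1.5 times, the highest ratio was 3.18, and some orders turned, as given in the text. Of the 20 least even genes, 19 were kept under RLE factors and 12 without replicates 3 and 5. Depth limits statements on low genes, since 3 counts are 0.183 to 0.278 CPM in a single library.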
